A study of Oryza sativa with 4 samples.

Results

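The loci described here are the 41 rice transcripts with the widest clear fall in seedlings of transgenic line 40, among transcripts that could be measured in both genotypes. A probe entered if it was well above background on all 4 arrays and if its lower wild type value exceeded its higher line 40 value by at least 1.5 on a log2 scale. Of 55078 non-control probes for 52795 loci, 35931 were well above background on all 4 arrays, and 43 of these, or 0.12%, had such a gap. LOC_Os01g50520 and LOC_Os01g50530 were then left out, since the rule excludes a block of loci around them on chromosome 1 and a window on chromosome 7. Each of the 41 remaining probes stands for a different locus of the MSU rice annotation. The loci were thus chosen by their processed signals in the 2 groups, the contrast described here, so their differences are given as a description with no test.

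Both groups were Oryza sativa ssp. japonica cultivar Nipponbare, sampled as whole seedlings at 14 days and grown in soil in a greenhouse. The wild type group had 2 arrays, and the group of transgenic line 40, which overexpresses LOC_Os02g43330, also had 2. Line 40 is a single transgenic line, so the values describe this line and do not separate the overexpressed gene from other features of the line. The promoter of the transgene and the number of seedlings per RNA extract are not given in the sources used here. Nothing in the labels ties the biological replicates to separate sowings, so the spread between arrays may be partly technical. A whole seedling mixes roots and leaves, and a lower level can come from fewer cells of a type or from less RNA per cell, which these data cannot tell apart.

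LOC_Os02g43330 encodes a homeodomain-leucine zipper protein of class I. Proteins of this plant family bind DNA as dimers through the homeodomain, with the zipper as the dimer interface, and members are known for roles in drought and abscisic acid responses and in growth. Some act as activators of transcription and others as repressors. The probe of LOC_Os02g43330 read 1449 and 2116 in wild type seedlings and 229115 and 280179 in line 40 in processed signal, so the arrays match their labels. The files name the other loci by MSU identifier alone, in which the leading digits are the chromosome and the later digits increase along it. The 41 loci are therefore ordered below by their values and positions, and no gene function is given for them.

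All levels below are log2 of the processed signal, which is the spot brightness after the scanner software's background subtraction, relative to the 75th percentile of the same array. A level of 0 thus marks the 75th percentile, which lay at signals of 366.6, 488.1, 403.8 and 430.7 on the 4 arrays. The lowest signal that counted as well above background lay between 9.975 and 10.87, which set the floor of the line 40 arrays at levels of -5.34 and -5.33. Leaf and root markers were checked on the same seedlings. All 22 leaf and photosynthesis markers and all 14 root markers were measured in at least 1 group, and the log2 of their mean linear level was 7.81 and 7.74 (leaf) and 3.38 and 3.59 (root) in the wild type against 8.20 and 8.26 (leaf) and 4.08 and 3.97 (root) in line 40. Over 36878 tested loci, limma with Benjamini-Hochberg adjustment called 1.14% lower and 0.93% higher in line 40. These are 420 lower and 343 higher loci, a split that turned to 151 and 240 after quantile normalization, 250 and 285 after cyclic loess, 1240 and 1485 with median scaling and 333 and 764 after normexp background correction. None of the 22 leaf markers was called lower and 5 were called higher, while 1 of 14 root markers was called higher and none lower. The median difference was 0.71 for the leaf list and -0.14 for the root list, beside -0.06 for all tested loci. The part of these shifts in the levels of the 41 loci was not tested.

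LOC_Os06g17000 on chromosome 6 stood apart from the other 40 loci in its gap. In processed signal, wild type seedlings read 690.9 and 1087 and line 40 seedlings 28.11 and 30.73. In levels, these are 0.91 and 1.15 against -3.84 and -3.81, so both arrays of a group lay close together and the groups lay far apart. Wild type averaged 1.03 ± 0.17 and line 40 averaged -3.83 ± 0.025 (both SD, n = 2), which is -4.86 apart or 29.1-fold lower. The gap between the nearest arrays of the groups was 4.72, and the next largest gap, of LOC_Os01g59800, was 2.90. In the wild type the locus was brighter than 76.1% of measured probes, and in line 40 brighter than 11.3%. Of the 10 tested loci within 100 MSU numbers of it, none was called.

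**Figure D1:**
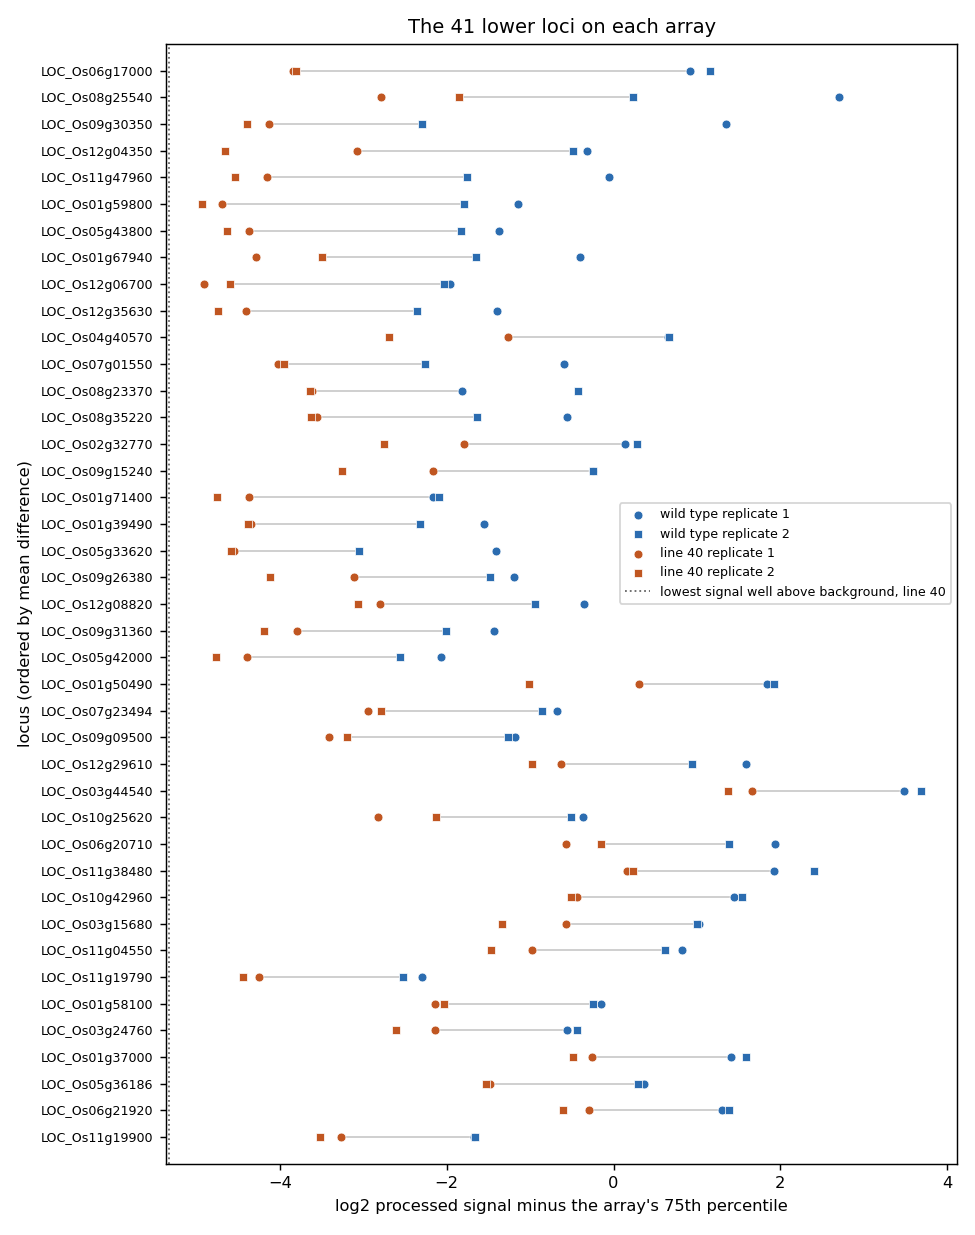
Level of each of the 41 loci (vertical axis, ordered by mean difference) on each of the 4 arrays, as log2 processed signal relative to the 75th percentile of the array (horizontal axis). Blue marks are the wild type arrays, orange marks the line 40 arrays, and the grey line is the gap between the nearest arrays of the groups, widest for LOC_Os06g17000 at 4.72.

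Over the 41 loci the difference ranged from -4.86 to -1.73 with a median of -2.28, which is 3.31-fold to 29.1-fold lower with a median of 4.86-fold. The fold reached 4 for 30 loci and 8 for 6 loci. Every line 40 value lay below every wild type value, as the rule demands, and this weaker condition alone held for 31.7% of the 35931 measured probes. Of the 40 loci that entered the fit, 28 were called lower, beside 1.14% of all tested loci. The same contrast chose these loci, so nothing is read from that count, which was 8 without wild type replicate 1, 16 without line 40 replicate 2 and 1 with no filter on dim probes. In the opposite direction, the mirrored rule with the same exclusions found 119 of the 35931 measured probes to be higher in line 40. These stand for 116 loci and include the overexpressed LOC_Os02g43330.

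Mean wild type levels of the 41 loci ran from -2.41 for LOC_Os11g19790 to 3.59 for LOC_Os03g44540, within a range of -5.23 to 10.8 over all measured probes. In the wild type 15 of them lay above the 75th percentile, 36.6% against 36.7% of all measured probes. In line 40 only LOC_Os03g44540 and LOC_Os11g38480 did, 4.9% against 36.8%. The rule picks low line 40 values, so this smaller share follows in part from it. By overall mean level, 15 loci lay in the dimmest 3 deciles of the measured probes, 17 in the next 3 deciles and 9 in the brightest 4 deciles. The dimmest and the brightest decile held none of them. Dim probes as a whole were slightly lower in line 40, with a median difference of -0.19 in the dimmest decile and 0.13 in the brightest. Between 37479 and 37906 probes were well above background on the line 40 arrays, against 39691 and 39796 on the wild type arrays.

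**Figure D2:**
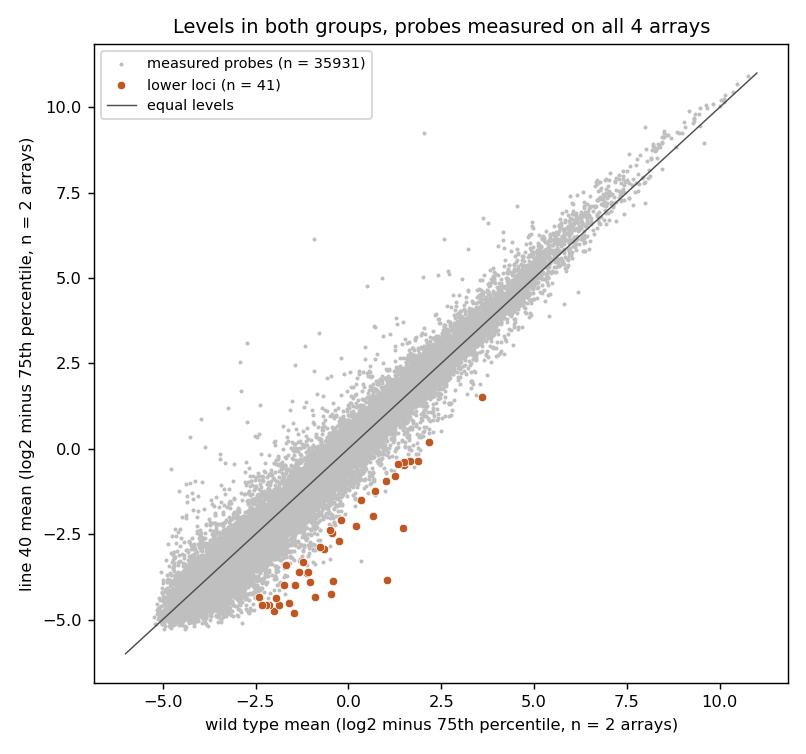
Mean level in line 40 (vertical axis) against mean level in the wild type (horizontal axis), both log2 processed signal minus the 75th percentile over 2 arrays, for 35931 measured probes (grey) and the 41 loci (orange). The 41 loci run along the lower edge of the cloud, and LOC_Os03g44540 at 3.59 and 1.52 is the brightest of them.

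How far the line 40 signal sat above the floor differed widely between these loci. For 10 loci it was less than 1 log2 unit above the floor, for 10 it was between 1 and 2 units, and for 21 it was at least 2 units. Less than 1 unit is thus the position of 24.4% of the 41 loci. Of all measured probes, 94.7% lay more than 1 unit above the floor. The rule picks low line 40 values and so favours positions near the floor. In the group nearest the floor, line 40 signals ran from 13.44 to 22.62 and wild type signals from 59.07 to 353.2. In the group at least 2 units above it, they ran from 38.07 to 1276 and from 161.5 to 6313.

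The loci nearest the floor in line 40 included several of the largest folds. LOC_Os01g59800 on chromosome 1 lay at -1.15 and -1.79 in the wild type and at -4.69 and -4.94 in line 40, 10.2-fold lower. LOC_Os05g43800 on chromosome 5 lay at -1.37 and -1.83 against -4.37 and -4.63, 7.48-fold lower. LOC_Os12g06700 on chromosome 12 was at -1.96 and -2.03 against -4.91 and -4.60, 6.77-fold lower. In these 3 loci the arrays of a group differed by 0.64 at most, well under the gaps of 2.54 to 2.90. Similar low line 40 values were found for LOC_Os12g35630, LOC_Os01g71400, LOC_Os01g39490 and LOC_Os05g42000, which were 6.50-fold, 5.43-fold, 5.38-fold and 4.81-fold lower. LOC_Os11g19790 on chromosome 11 had wild type levels of -2.30 and -2.53 and line 40 levels of -4.25 and -4.45, with no overlap and a difference of -1.94. It lies 11 places, in steps of 10 MSU numbers, from LOC_Os11g19900, the member with the smallest mean difference, at -1.67 on both wild type arrays and at -3.27 and -3.52 in line 40. No locus within 100 numbers of LOC_Os11g19790 was called.

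Several loci lay far above the floor in line 40 and were close between replicate arrays; these were singled out after their values were seen. LOC_Os03g44540 on chromosome 3 gave signals of 4101 and 6313 in the wild type and 1276 and 1120 in line 40. Its levels were 3.48 and 3.69 against 1.66 and 1.38, a difference of -2.07 or 4.20-fold. LOC_Os11g38480 on chromosome 11 lay at 1.93 and 2.41 against 0.16 and 0.24, 3.92-fold lower. LOC_Os10g42960 on chromosome 10 lay at 1.44 and 1.54 against -0.43 and -0.51, 3.91-fold lower, and its arrays differed by 0.10 and 0.08 within the groups. LOC_Os01g37000 on chromosome 1 was at 1.41 and 1.59 against -0.26 and -0.49, and LOC_Os06g21920 on chromosome 6 at 1.30 and 1.38 against -0.29 and -0.61. In LOC_Os05g36186 the arrays of each group differed by less than 0.08, at 0.37 and 0.29 against -1.48 and -1.53. In these 6 loci no group had a range wider than 0.48, and the folds lay between 3.46 and 4.20.

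Replicate arrays differed by under 0.5 within both groups for 17 of the 41 loci, and the differences of these 17 ran from -4.86 to -1.73 with a median of -1.97. The remaining 24 loci were less even. The range between wild type arrays exceeded 1 for 8 of the 41 loci (19.5%), against 3.86% of all measured probes, and the range between line 40 arrays exceeded 1 for 5 (12.2%), against 0.821%. Wild type replicate 1 was above replicate 2 for 27 of the 41, and line 40 replicate 1 was above replicate 2 for 30, which is 65.9% and 73.2%. Over all measured probes these shares were 42.1% and 45.8%.

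**Figure D3:**
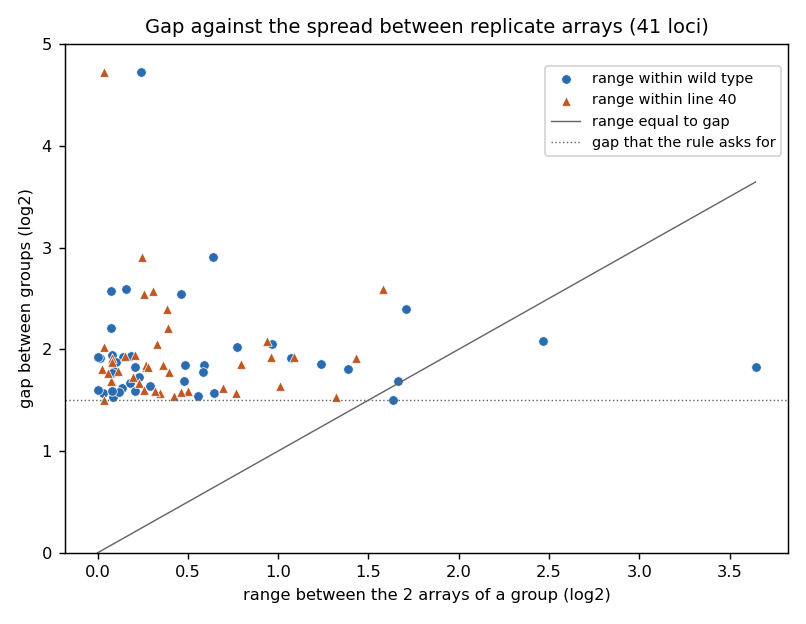
Gap between the groups (vertical axis, log2) against the range between the 2 arrays of a group (horizontal axis, log2) for the 41 loci, with blue circles for the wild type and orange triangles for line 40. Points right of the solid line have a range wider than the gap, which held for the wild type range of 3 loci and for no line 40 range.

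The spread was widest in the wild type for LOC_Os09g30350 on chromosome 9. Its signals were 931.1 and 99.2 in the wild type and 23.09 and 20.49 in line 40. In levels, wild type replicate 1 lay at 1.34, wild type replicate 2 at -2.30, and the line 40 arrays at -4.13 and -4.39, so that both groups are separate but the wild type arrays differ by 3.64, more than the gap of 1.83. The mean difference of 13.8-fold fell to 3.90-fold without wild type replicate 1 and rose to 48.7-fold without wild type replicate 2. The adjacent LOC_Os09g30340 and LOC_Os09g30360 showed no such spread, with wild type levels of -3.18 and -3.41 and of 1.09 and 1.40, and differences of -0.18 and 0.05.

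LOC_Os11g47960 on chromosome 11 had a similar shape, at -0.05 and -1.76 in the wild type and -4.16 and -4.54 in line 40. It was 10.9-fold lower, or 6.02-fold without wild type replicate 1 and 19.7-fold without wild type replicate 2. Its neighbour LOC_Os11g47970 was among the brightest loci of the array, at 10.5 and 10.2 in the wild type and 10.4 and 10.5 in line 40, with a difference of 0.09. LOC_Os08g25540 on chromosome 8 lay at 2.70 and 0.23 against -2.79 and -1.85, 13.8-fold lower. It is the only one of the 41 whose spot was flagged for uneven pixels, on both wild type arrays, and it did not enter the fit. Without wild type replicate 1 its fold was 5.86, and without wild type replicate 2 it was 32.4.

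Another 4 loci moved by over 1.5 times in fold with the choice of wild type array. LOC_Os07g01550 was 5.89-fold lower, and 3.31-fold without wild type replicate 1 or 10.5-fold without wild type replicate 2. LOC_Os05g33620, which had the smallest gap of all, was 5.07-fold lower, and 2.87-fold or 8.94-fold with the same arrays left out. For LOC_Os01g67940 the fold was 7.32, and 4.77 or 11.3. In LOC_Os08g23370 the order of the wild type arrays was turned, with replicate 2 at -0.43 above replicate 1 at -1.81, and the fold of 5.70 became 9.22 without replicate 1 and 3.52 without replicate 2. The rule itself fixes that all 41 loci stay lower with any 1 array left out. The lowest fold was then the 2.87 of LOC_Os05g33620.

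In line 40 the widest spread was that of LOC_Os12g04350 on chromosome 12. Its wild type levels of -0.32 and -0.48 were close, while line 40 replicate 1 lay at -3.08 and replicate 2 at -4.66. Its 11.1-fold difference was 19.1-fold without line 40 replicate 1 and 6.39-fold without line 40 replicate 2. LOC_Os04g40570 on chromosome 4, at 0.65 and 0.66 against -1.26 and -2.69, was 6.21-fold lower, and 10.2-fold or 3.78-fold with the same arrays left out. LOC_Os01g50490 followed the same order, at 1.84 and 1.92 against 0.31 and -1.01. It was 4.70-fold lower, or 7.42-fold without line 40 replicate 1 and 2.97-fold without line 40 replicate 2. LOC_Os02g32770 and LOC_Os09g15240 had almost equal wild type arrays and lay 0.96 and 1.09 higher on line 40 replicate 1 than on replicate 2, for folds of 5.55 and 5.53. LOC_Os09g26380, at -1.19 and -1.48 against -3.12 and -4.13, had a line 40 range of 1.01. In these 6 loci, which have the widest line 40 ranges of the 41, line 40 replicate 2 was the lower array. Replicate 1 was the lower array in LOC_Os08g25540, LOC_Os01g67940 and LOC_Os10g25620, whose line 40 ranges were 0.94, 0.79 and 0.69.

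Of the 24 loci with the largest differences, those whose fold is not yet given were LOC_Os08g35220 (5.64-fold), LOC_Os09g26380 (4.88-fold), LOC_Os12g08820 (4.86-fold) and LOC_Os09g31360 (4.82-fold). The 17 loci behind them were 3.31-fold to 4.28-fold lower, with an SD of at most 0.46 between wild type arrays and 0.54 between line 40 arrays. They include LOC_Os07g23494, LOC_Os09g09500, LOC_Os12g29610, LOC_Os10g25620, LOC_Os06g20710, LOC_Os03g15680, LOC_Os11g04550, LOC_Os01g58100 and LOC_Os03g24760. Of these 17 loci, 10 had a wild type level above 0 and 12 had replicate arrays within 0.5 of each other in both groups.

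The boundary of the rule fell within a continuous run of values. Just inside it, beside LOC_Os05g33620, were LOC_Os01g50490 with a gap of 1.53 and LOC_Os06g20710 with 1.54. Just outside were LOC_Os04g40410 with a gap of 1.49, LOC_Os03g19375 with 1.49 and LOC_Os07g41860 with 1.49. LOC_Os04g40410 had levels of 1.91 and 1.89 in the wild type and 0.27 and 0.40 in line 40, with no overlap. A gap of at least 1 was met by 172 probes and a gap of at least 2 by 10. The condition on background also shaped the set. Another 21 probes were well above background on both wild type arrays and on neither line 40 array, with a gap of at least 1.5 when line 40 was set no lower than its floor, and 13 more were so with 1 line 40 array above background.

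The size of the differences depended on the treatment of background and dim signals. An added offset by itself shrinks differences between dim signals. Normexp was run only with its offset, so the parts of the background model and the offset were not tested. With normexp correction, which models background and adds an offset of 50 before the logarithm, the median difference of the 41 loci was -1.45 in place of -2.28, and 10 of the 41 still had a gap of 1.5. All 41 still had every line 40 value below every wild type value. The rule chose them for such a gap on the same arrays, so nothing is read from this count. Its share over all measured probes after normexp was not computed. LOC_Os06g17000 then lay at -3.20, or 9.20-fold lower, and kept the widest gap at 3.10. Among the 10 loci nearest the floor the median went from -2.57 to -1.14 and none had a gap of 1.5. Among the 21 loci at least 2 units above the floor it went from -2.04 to -1.72 and 8 had such a gap. LOC_Os11g38480 changed little, from -1.97 to -1.84, whereas LOC_Os11g19790 went from -1.94 to -0.78.

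**Figure D4:**
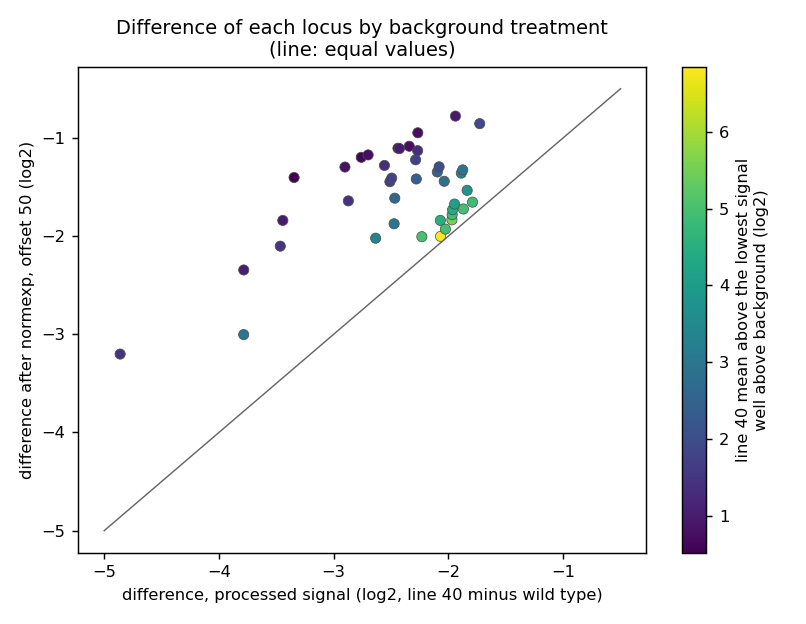
Difference between line 40 and wild type after normexp with an offset of 50 (vertical axis, log2) against the difference of the processed signal (horizontal axis, log2) for the 41 loci, coloured by how far the line 40 mean lies above the lowest signal well above background. Loci far above it lie near the line of equal values, such as LOC_Os11g38480 at -1.97 and -1.84, and loci near it lie well above the line, such as LOC_Os11g19790 at -1.94 and -0.78.

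Measures that the rule did not use were read at the same spots. Each of the 41 probes was printed once. The error that the scanner software gives for a spot was between 0.14 and 0.30 on the log2 scale at the worst array of each locus. This error covers the measurement of a spot and not the spread between samples. The spots within 2 rows and 2 columns of each probe had a median difference between -0.37 and 0.31, with a middle value of -0.02 over the 41 loci and -0.03 over all measured spots, so spots around them did not share the fall. Local background brightness at these spots averaged 26.25 to 34.25 in the wild type and 21 to 30 in line 40. It was not computed over all spots, so whether the lower background is particular to these spots was not tested. Of the 41 loci, 39 had a single probe. LOC_Os01g59800 had a second probe, for another transcript model, at -1.18 and -2.28 in the wild type and not well above background on either line 40 array, which is at least 12.1-fold lower in processed signal. The second probe of LOC_Os12g08820 gave a different picture, at -2.39 and -2.47 against -2.62 and -2.74, a difference of -0.25 beside -2.28 for the first probe.

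The 41 loci lay on all 12 chromosomes. Chromosome 1 held 7, chromosomes 9, 11 and 12 held 5 each, and chromosomes 2 and 4 held 1 each. Per 1000 measured probes this was 2.34 on chromosome 9, 2.09 on chromosome 11, 2.06 on chromosome 12 and 1.53 on chromosome 1, and 0.27 on chromosome 2. No pair of the 41 lay within 100 MSU numbers of each other.

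Few loci near the 41 were called lower with them. Among 526 tested loci within 100 MSU numbers of one of the 41, 12 were called lower (2.28%) and 3 higher, and their median difference was -0.04, beside 1.14% called lower and a median of -0.06 over all tested loci. Without the loci that the rule excludes, 7 of 520 were called lower (1.35%). Of 54 loci counted at most 10 numbers away, 1 was called lower (1.85%) and the median was -0.20. Of these 54 nearest loci, 39 had a difference below 0 (72.2%), against 56.3% of all tested loci. The 54 leave out LOC_Os11g19890, which lies 10 numbers below LOC_Os11g19900 and differed by -0.74, not called. It was counted only at 100 numbers from LOC_Os11g19790.

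**Figure D5:**
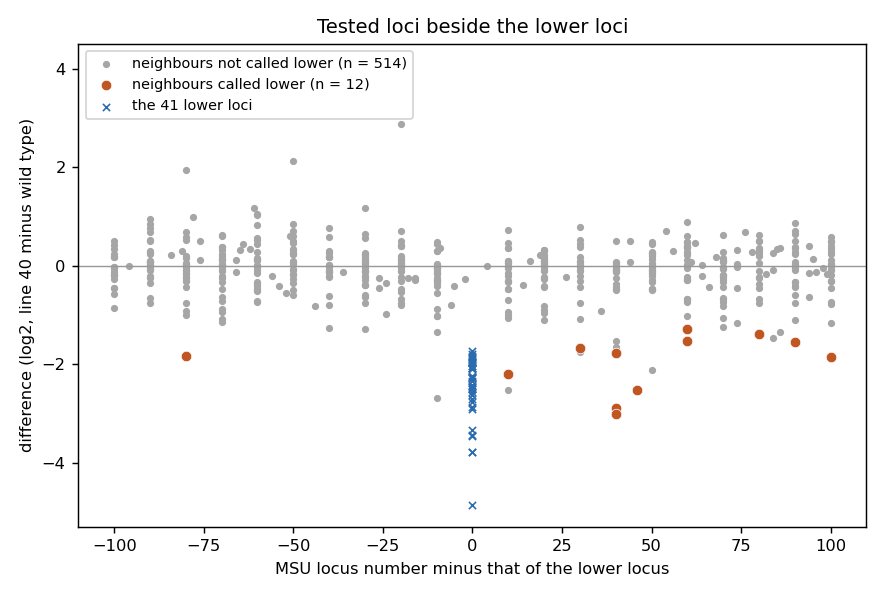
Difference between line 40 and wild type (vertical axis, log2) of the tested loci within 100 MSU numbers of the 41 loci, by the MSU number relative to the nearby member (horizontal axis). Grey points were not called lower, orange points are the 12 called lower by limma at an adjusted p under 0.05, and blue crosses at 0 are the 41 loci, which were chosen for their fall.

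Of the 41 loci, 8 had a neighbour called lower, or 7 without the loci that the rule excludes. The share of all tested loci with such a neighbour was not computed. LOC_Os01g50490 had 5 neighbours called lower. Within 100 numbers above it 6 loci of the excluded block were tested, and LOC_Os01g50520, LOC_Os01g50530, LOC_Os01g50570, LOC_Os01g50580 and LOC_Os01g50590 were called lower (limma adjusted p = 0.0210 to 0.0498). LOC_Os01g50580 was well above background on neither line 40 array, and its processed signal was at least 2.91-fold lower. LOC_Os01g50550 of the same block was not called, at a difference of -1.01 (SE 0.58, limma adjusted p = 0.339). LOC_Os01g50530 had levels of 1.11 and 1.19 against -0.50 and -0.75, and a difference of -1.77 (SE 0.16). On the other side of LOC_Os01g50490, LOC_Os01g50480 lay at -2.20 and -2.31 against -4.28 and -5.58, a difference of -2.68 (SE 0.44) that missed the threshold (limma adjusted p = 0.0582), with 1 of 2 line 40 arrays above background. In that locus too line 40 replicate 2 was the lower array.

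Beside LOC_Os09g09500 on chromosome 9, which lay at -1.18 and -1.26 against -3.41 and -3.20, the next locus LOC_Os09g09510 was lower as well. It lay at -2.80 and -2.89 against -5.33 and -4.78, with 1 of 2 line 40 arrays above background (difference -2.21, SE 0.23, limma adjusted p = 0.0263). The other 3 tested loci within 100 numbers above LOC_Os09g09500 missed the threshold. LOC_Os09g09520 differed by -1.10 (SE 0.18, limma adjusted p = 0.0568), LOC_Os09g09570 by -1.25 (SE 0.19, limma adjusted p = 0.0525) and LOC_Os09g09600 by -1.16 (SE 0.37, limma adjusted p = 0.151). The 4 tested loci within 100 numbers below it differed by -0.31 to 0.03. LOC_Os04g40630, 60 numbers above LOC_Os04g40570, lay at -0.55 and -0.04 against -1.85 and -1.79 (difference -1.53, SE 0.22, limma adjusted p = 0.0471). The remaining 5 called neighbours were LOC_Os01g67980, LOC_Os06g20750, LOC_Os07g23540, LOC_Os01g59720 and LOC_Os05g33680. None of these 5 was well above background on a line 40 array, and their processed signals were at least 1.74-fold, 2.31-fold, 1.49-fold, 2.00-fold and 1.57-fold lower. Large falls that were not called lay near other members too. For example, LOC_Os05g42010 differed by -2.52 (SE 0.72), with 1 of 2 line 40 arrays above background. LOC_Os05g43830 differed by -1.74 (SE 0.46), LOC_Os08g25580 by -1.66 (SE 0.25) and LOC_Os11g04540 by -1.35 (SE 0.21). LOC_Os12g35680, above background on neither line 40 array, was at least 2.27-fold lower in processed signal. Other uncalled neighbours were higher, such as LOC_Os10g25600 by 2.87 (SE 1.67) and LOC_Os06g20630 by 1.95 (SE 0.50). The 3 neighbours called higher lay near LOC_Os01g71400 and LOC_Os01g58100. Near the first, LOC_Os01g71350 differed by 2.12 (SE 0.17, limma adjusted p = 0.0149) and LOC_Os01g71340 by 1.03 (SE 0.15, limma adjusted p = 0.0475). Near the second, LOC_Os01g58039 differed by 1.17 (SE 0.14, limma adjusted p = 0.0358). Whether any neighbouring probes share sequence was not tested.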

How the data were processed

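Total RNA of 4 samples was labelled with Cy3 and hybridised to 1-colour Agilent arrays. The scanner files give linear spot intensity from Agilent Feature Extraction 10.7.1.1, per the file headers, which subtracted background and detrended it. The value table of the whole series repeats the deposited intensity of each array. All 4 arrays share 1 slide and 1 scan time, with the wild type at positions 1 and 2 and line 40 at positions 3 and 4, so position and group cannot be told apart. No saturated spots were flagged.

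Levels are log2 processed signals relative to the 75th percentile of each array's non-control spots. The spots of a probe were averaged. For the background share, limma 3.58.1 (R 4.3.3; lmFit, eBayes, two-sided, Benjamini-Hochberg, threshold 0.05) was fitted to 36878 loci well above background on both wild type or both line 40 arrays, by the highest-mean probe, without 37 probes with uneven spots. The scripts were tested on simulated data. Normexp used the spot and background medians. Alternatives covered the scaling, background, filter, gap, replicate block and arrays left out. With 2 arrays per group, their number limits the precision. An "at least" fold sets each line 40 array no lower than its floor.

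The 41 loci, the marker lists and the tests were chosen with earlier results of these data known. Named were the overexpressed gene, the 24 members with the largest difference, the 3 on each side of the gap, members with another probe or a member within 100 MSU numbers, and others as stated. Sequences and coordinates are not used here.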

Additional observations from a re-analysis of the deposited data

How the results depend on the processing

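All 41 loci stayed lower in line 40 under each of the 4 other scalings and backgrounds. They were chosen for a gap of at least 1.5 on the same arrays, so nothing is read from the kept direction. With 1 array left out they stay lower by the rule itself, so nothing is read from that. Quantile normalization, median scaling and cyclic loess kept 38, 31 and 39 of the 41 within the rule, and normexp kept 10 (10 probes in all, median difference -1.45). A gap of 1 gave 172 probes and a gap of 2 gave 10. With 1 array left out the rule asks less, and it then found 82 to 666 probes: 96 without wild type replicate 1, 666 without wild type replicate 2, 88 without line 40 replicate 1 and 82 without line 40 replicate 2. The median difference of the 41 was then -2.45 to -2.03. Median scaling moved the median of all tested loci from -0.06 to 0.08.

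The background counts of limma moved more. Against 420 lower and 343 higher loci, quantile normalization gave 151 and 240, median scaling 1240 and 1485, cyclic loess 250 and 285, and normexp 333 and 764. No filter on dim probes gave 8 and 15, and a filter asking for all 4 arrays gave 171 lower and 332 higher. With 1 array left out the counts ran from 256 lower (without line 40 replicate 1) to 1489 lower (without wild type replicate 2), and from 73 higher (without wild type replicate 1) to 302 higher. In such fits the lone array is assumed to vary like the other group. Of the 40 loci described here that entered the fit, 28 were called lower, and 19 after quantile normalization, 22 after cyclic loess, 37 with normexp, 40 with median scaling, 1 with no filter on dim probes, 31 with the filter on all 4 arrays, 34 with the replicate block, and 8 (without wild type replicate 1) to 30 (without wild type replicate 2) with 1 array left out. The cause of these moves was not tested. Settings that change the filter or leave out an array also change which loci or arrays enter the fit. With the replicate number as a block the counts were 454 and 317. Across all tested loci, same-numbered arrays did not deviate together (correlation -0.07). That value cannot show whether they were paired, and the labels do not say. Signals near the floor limit the folds of the dimmest loci.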
